A study of Zea mays with 4 samples.

Results

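The microRNA families described here are miR399, miR444 and miR827, which act in phosphate and nitrate signalling. They were measured by small RNA sequencing of maize leaves at the 4-leaf stage. Members were all rows of the deposited table whose name is of the family miR399, miR444, miR395 or miR827, whatever its species prefix or suffix, with each sequence used once. The rule gave 15 of the 319 distinct sequences in the table, namely 4 of miR399, 9 of miR444 and 2 of miR827. No row carried the name of miR395, a sulfate regulator, so it had 0 members.

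The study had 4 libraries, 1 for each group. T1 came from leaves on which larvae of the fall armyworm, Spodoptera frugiperda, had fed for 1 day, and T3 from leaves after 3 days of feeding. CK1 and CK3 are leaves whose labels name only the tissue, and they serve as the unfed libraries. All 4 are Zea mays, and no cultivar, genotype, plant number or time of harvest of the unfed leaves is given in the sources used here. The protocol speaks of more libraries than these 4, and nothing says whether a value column pools several or whether the libraries came from separate plants. As every group is a single library, differences between libraries have no replicate behind them.

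miR399 guides cleavage of the transcript of PHO2, a ubiquitin-conjugating enzyme that lowers phosphate transport, and in Arabidopsis it accumulates under phosphate shortage and moves from shoot to root. In maize and other plants it is held back by target-mimic RNAs. miR827 also rises under low phosphate, and in rice it targets transcripts of SPX-MFS phosphate transporters. miR444 is known from grasses, its genes lie antisense to the MADS-box transcription factor genes whose transcripts it targets, and in rice it acts in nitrate and phosphate responses and in antiviral defence. None of these targets, and no transcript marker of leaf, was measured here.

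The sequences below show how the members relate to one another. Each is printed as DNA from the deposited table, 5′ to 3′, with the seed (bases 2 to 8) in capitals. The miR399 sequences were these.
zma-miR399a-3p: tGCCAAAGgagaattgccctg
zma-miR399e-3p: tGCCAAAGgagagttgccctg
zma-miR399f-3p: tGCCAAAGgaaatttgccccg
zma-miR399f-5p: gGGCAACTtctcctttggcaga
The 3 sequences of the 3p arm, the arm that pairs with PHO2, shared the seed GCCAAAG, which no other sequence of the table had. Counted from the 5′ end, zma-miR399f-3p differed from zma-miR399a-3p by G11A, A13T and T20C, and zma-miR399a-3p differed from zma-miR399e-3p by G13A. The sequence zma-miR399f-5p comes from the opposite arm of a precursor and was complementary to zma-miR399a-3p at 16 of 20 overlapping bases and to zma-miR399f-3p at 15 of 20.

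Among miR444, the 4 sequences with a common start and 3 that are displaced from them or partly complementary to them are shown, because the levels are described by these groups.
zma-miR444a: tGCAGTTGttgtctcaagctt
zma-miR444a_1ss12TC: tGCAGTTGttgcctcaagctt
zma-miR444a_R-1_1ss12TC: tGCAGTTGttgcctcaagct
osa-miR444a-3p.2_R-2_1ss9CT: tGCAGTTGttgcctcaagc
osa-MIR444f-p5: aAGTTGTGcagttgttgcctc
ssp-MIR444a-p3: gCATGAGGcaggaactgcatt
bdi-MIR444d-p5: cGGCAAGCtagaggcagcaac
The second sequence, also listed as the rice microRNA osa-miR444f, differed from zma-miR444a by T12C. The other 2 with this start are its 20-nt and 19-nt forms, shortened at the 3′ end. All 4 shared the seed GCAGTTG. The sequence osa-MIR444f-p5 matched the T12C form at 15 of 15 overlapping bases but starts further upstream. Both ssp-MIR444a-p3, complementary to the T12C form at 16 of 19 overlapping bases, and bdi-MIR444d-p5, complementary at 15 of 17, match the opposite strand. They are called opposite-strand members below for this match alone, as no precursor sequence was at hand to place them. The other two miR444 members are bdi-MIR444d-p5_1ss2GA, which bdi-MIR444d-p5 differs from by A2G, and osa-MIR444e-p3, which matched the T12C form at 13 of 14 overlapping bases.

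The miR827 pair consists of the 3p sequence, which pairs with the targets, and a 5p sequence extended by a base at its start.
zma-miR827-3p: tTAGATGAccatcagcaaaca
zma-miR827-5p_L+1: tTTTGTTGgtggtcatttaacc
The 2 arms were complementary at 16 of 20 overlapping bases. In RefSeq's annotation of the maize assembly Zm-B73-REFERENCE-NAM-5.0, 10 genes on 6 chromosomes are named MIR399, 1 is named MIR827 and 0 are named MIR444. A further 15 on 2 chromosomes are named MIR395, the family without a member here. Of the miR399 members, zma-miR399a-3p and zma-miR399e-3p each stood on 3 rows of the deposited table with equal values. The table does not say which genes these rows stand for.

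Values are in normalized units, scaled by the authors. The steps between values gave the worth of 1 read as 0.736 units in CK1 and 0.826 in CK3, against 0.303 in T1 and 0.352 in T3, so the fed libraries were over 2 times as deep as the unfed ones. The listed sequences summed to 87014 implied reads in CK1 and 90834 in CK3, against 209054 in T1 and 180674 in T3. Apart from 1 to 4 values per library, no listed value stood below 5 reads, which equals 3.68 units in CK1 and 4.13 in CK3, against 1.51 in T1 and 1.76 in T3. A sequence listed at 0 may therefore have been present below that level, and the limit was higher in the unfed libraries. Sequences named after miR5368, miR6173 and 6 other families, names picked in an earlier analysis of these data because many stood high in CK3, summed to 1021 units in CK1 and 4418 in CK3, against 887 in T1 and 1667 in T3. No sequence carried an insect microRNA name from the list used. Intervals below are 95% intervals and cover counting error only, since PCR copies were not told apart by molecular identifiers.

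**Figure D1:**
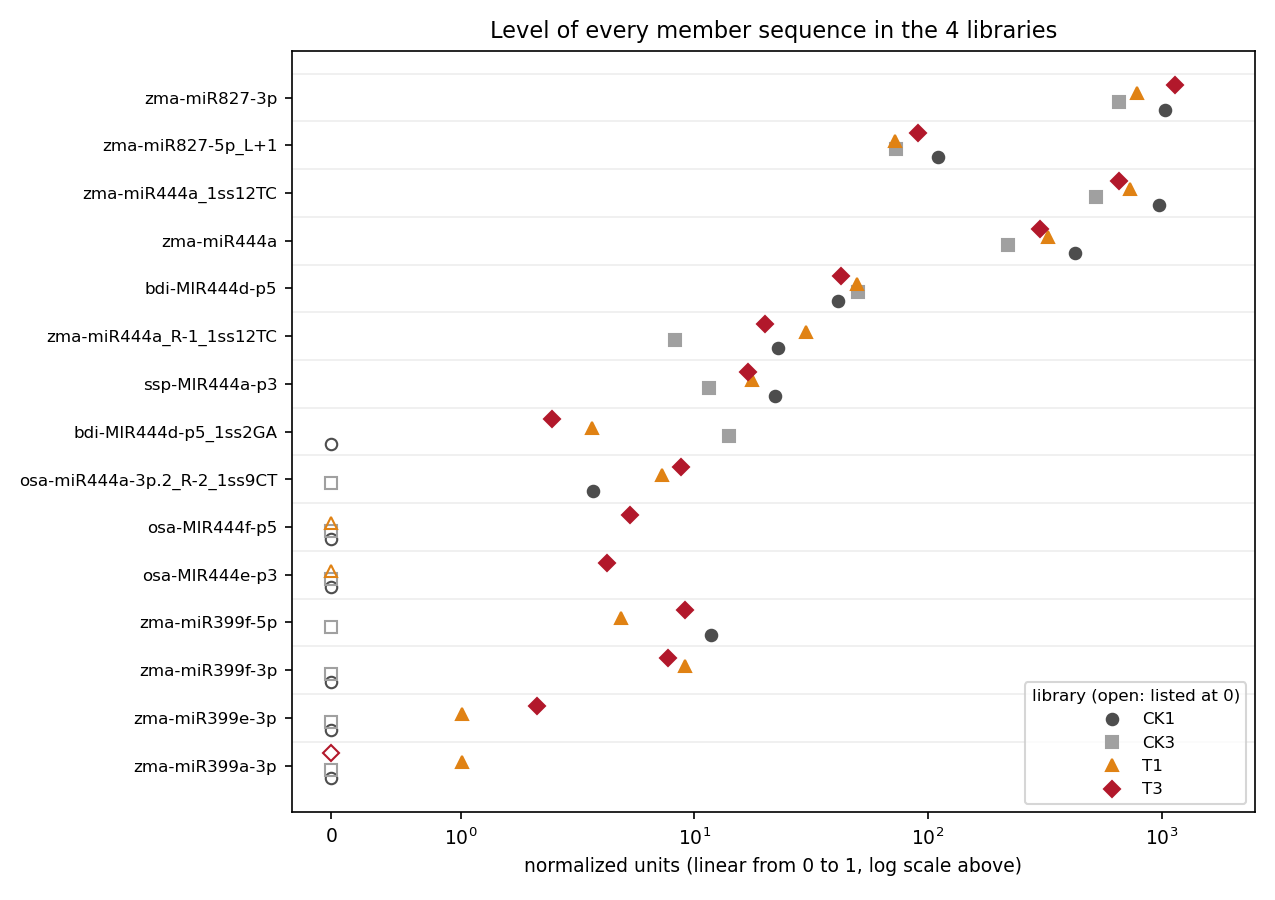
Level of each of the 15 member sequences (rows, grouped by family) in normalized units on the horizontal axis, with 1 symbol per library and open symbols for values listed at 0. The miR827-3p sequence and the 21-nt miR444 pair stand between 220 and 1137 units in every library, while no miR399 member exceeds 11.8 units.

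miR444 was present in every library, highest in CK1 and lowest in CK3, with both fed libraries between them. The family total was 1487 units in CK1 and 827.4 in CK3, against 1166 in T1 and 1056 in T3. The counting intervals were 1422 to 1553, 777 to 880, 1129 to 1203 and 1019 to 1095 units, so no pair of libraries overlapped by counting error alone. The unfed pair was the farthest apart, with CK3 at 0.557 of CK1. Of all listed units the family made up 2.32% in CK1 and 1.10% in CK3, against 1.84% in T1 and 1.66% in T3. In whole leaves, fewer cells that hold a microRNA and less of it per cell cannot be told apart.

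The T12C form led the family in all 4 libraries. It stood at 971 units in CK1 and 523 in CK3, against 733 in T1 and 654 in T3, and ranked between 12 and 15 among the listed sequences of a library. The reference sequence zma-miR444a was at 426, 220, 325 and 302 units in the same order of libraries. Both thus followed the order of the family total, with CK1 at the top and CK3 at the bottom. The T form made up 30.5% of the implied reads of this 21-nt pair in CK1 (exact binomial interval 28.4% to 32.6%, 579 of 1898 reads). Its share was 29.7% in CK3 (26.7% to 32.8%), 30.7% in T1 (29.2% to 32.3%) and 31.6% in T3 (29.9% to 33.4%). All 4 intervals overlapped, so the level of the pair differed between libraries while no difference in its composition was detectable at this depth.

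By value, the shortened forms of the T12C sequence did not follow that order, although CK3 again held the lowest value, for the 19-nt form a listed 0. For T1 against CK1 the counting intervals of their log2 ratios of units included 0. They were -0.20 to 1.03 for the 20-nt form and -0.44 to 2.73 for the 19-nt form. The 20-nt form was at 22.8 units in CK1 and 8.26 in CK3, against 29.97 in T1 and 20.1 in T3. The 19-nt form was at 3.68 units in CK1, listed at 0 in CK3, and at 7.27 in T1 and 8.80 in T3. At its CK1 level it would have given 4.46 reads in CK3, under the limit of 5. A difference between CK1 and CK3 was therefore not detectable for this form. Together they held 2.66% of the implied reads with C at base 12 in CK1 (1.87% to 3.66%) and 1.56% in CK3 (0.748% to 2.84%). In the fed libraries they held 4.84% in T1 (4.04% to 5.74%) and 4.23% in T3 (3.38% to 5.22%). The share was higher in both fed libraries than in both unfed ones. The interval of T1 stood apart from those of CK1 and CK3, whereas that of T3 overlapped that of CK1. With the 19-nt form in CK3 set to 5 reads, the share there was 2.31% (1.30% to 3.79%). For the 20-nt form alone the shares were 2.30% in CK1 and 1.56% in CK3, against 3.93% in T1 and 2.98% in T3, in the same order but with the intervals of CK1 (1.57% to 3.24%) and T1 (3.21% to 4.76%) just overlapping. This share was examined after the values were seen. The fed libraries were also the deeper ones, and the part of depth in it was not tested.

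Of the opposite-strand members, the sequence ssp-MIR444a-p3 was at 22.1 units in CK1 and 11.6 in CK3, against 17.6 in T1 and 16.9 in T3, the same order as the leading pair. The sequence bdi-MIR444d-p5 stayed within 41.2 to 50.4 units, with 41.2 in CK1 and 50.4 in CK3, against 49.7 in T1 and 42.6 in T3. For CK3 against CK1 the counting interval of the log2 ratio of units was -1.96 to 0.03 for ssp-MIR444a-p3 and -0.26 to 0.84 for bdi-MIR444d-p5. Both included 0 and they overlapped each other, and the difference between the 2 sequences was not tested. For the T12C form that interval was -1.03 to -0.76, within that of ssp-MIR444a-p3 and wholly below that of bdi-MIR444d-p5. The variant bdi-MIR444d-p5_1ss2GA had its highest value in CK3, with 14.0 units there, 3.63 in T1 and 2.46 in T3, and was listed at 0 in CK1. At its CK3 level it would have given 19.1 reads in CK1, above the limit of 5. At its T1 or T3 level it would have given under 5, so a difference between CK1 and the fed libraries was not detectable.

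Both miR444 members that start upstream of the leading pair were listed in T3 only. There osa-MIR444f-p5 was at 5.28 units, or 15 reads, and osa-MIR444e-p3 at 4.22 units, or 12 reads. At these levels T1, the deepest library, would have held 17.4 and 14.0 reads, and CK1 7.18 and 5.74 reads. These are low counts in a single library.

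**Figure D2:**
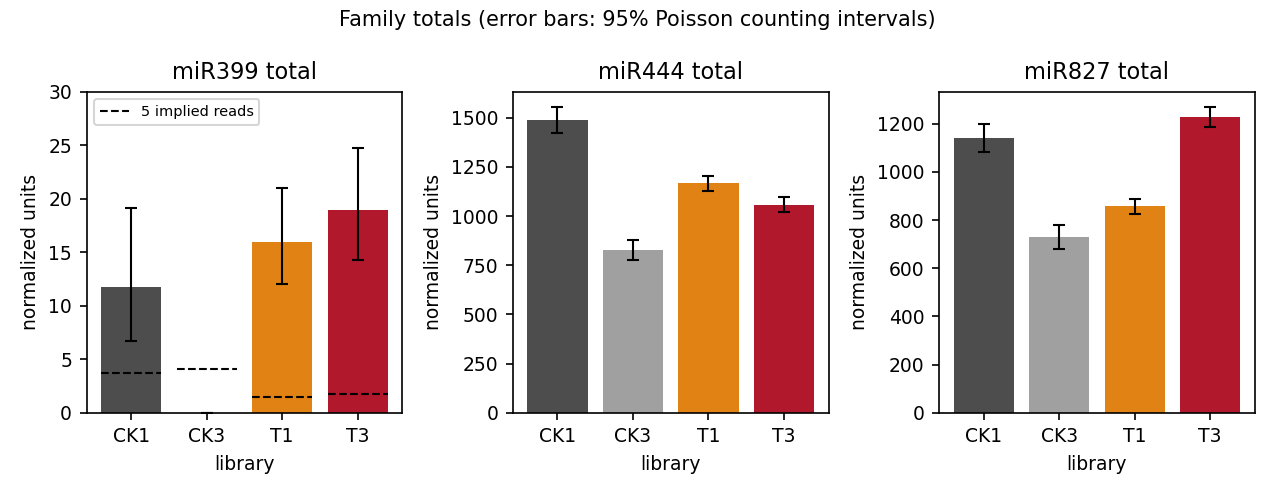
Summed normalized units of each family (vertical axis, separate scales) in the 4 libraries, with 95% Poisson counting intervals as error bars and, for miR399, dashed lines at the level of 5 implied reads. That level holds for a single sequence, so a summed value can hide more than the dashed line. The miR444 total is 1487 units in CK1 and 827.4 in CK3 with T1 and T3 between them, the miR827 total is highest in T3 at 1227, and miR399 is listed at 0 in CK3.

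The miR827 total lay between 728 and 1227 units and, like that of miR444, was lowest in CK3, but its highest value came after 3 days of feeding. The 3p sequence was at 1030 units in CK1 and 656 in CK3, against 785 in T1 and 1137 in T3, and ranked between 10 and 13 in a library. The 5p sequence was at 110 units in CK1 and 72.7 in CK3, against 72.1 in T1 and 90.1 in T3. The family total of 1227 units in T3 had a counting interval of 1187 to 1269, which overlapped that of CK1 (1141 units, 1085 to 1199). T1 at 856.8 units (825.5 to 889) stood above CK3 at 728 (681 to 778.03). T3 was thus 1.69-fold above CK3 and 1.08-fold above CK1. For T3 against CK1 the counting interval of the log2 ratio of units was 0.02 to 0.19, narrowly above equal levels.

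The 5p sequence contributed 9.68% of the miR827 reads in CK1 (8.25% to 11.3%) and 9.98% in CK3 (8.08% to 12.1%), against 8.41% in T1 (7.41% to 9.49%) and 7.34% in T3 (6.50% to 8.26%). The values of the fed libraries were the lower ones. All 4 intervals overlapped, those of T3 and CK1 barely.

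**Figure D3:**
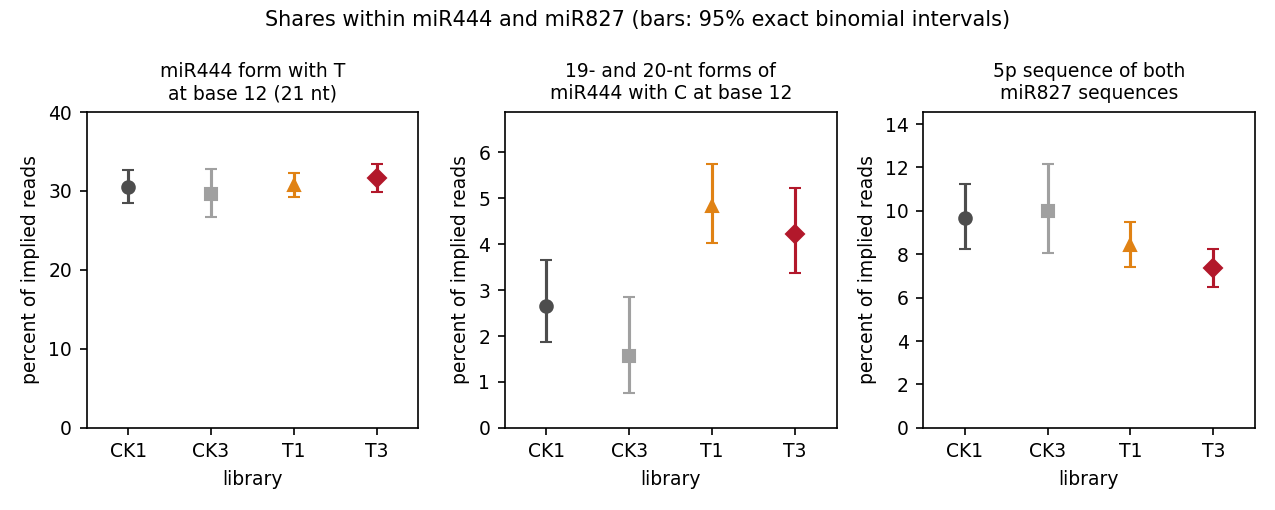
Percent of implied reads (vertical axes, from 0) in each library with 95% exact binomial intervals, for the miR444 form with T at base 12, the shortened forms of the T12C sequence, and the 5p sequence of miR827. The first share stays between 29.7% and 31.6%, the second is 1.56% and 2.66% in the unfed and 4.84% and 4.23% in the fed libraries, and the third runs from 7.34% to 9.98%.

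miR399 stood far lower than the other families, and its members differed in which libraries listed them. Its target-pairing 3p sequences were listed in fed libraries only. The most abundant, zma-miR399f-3p, was listed at 0 in CK1 and CK3 and stood at 9.08 units in T1 (30 reads) and 7.75 in T3 (22 reads). At the T1 level CK1 would have held 12.3 reads and CK3 11.0, and at the T3 level 10.5 and 9.38. These exceed the limit of 5 reads, so at its fed level zma-miR399f-3p was likely, though at such low counts not certain, to be listed in the unfed libraries. With 0 set to 5 reads, its difference in log2(value + 1) was 1.11 for T1 against CK1 and 0.77 for T3 against CK3. For the other 3p sequences the reads so derived did not reach the limit. zma-miR399e-3p was at 1.01 units in T1 and 2.11 in T3, while zma-miR399a-3p had 1.01 units in T1 and a listed 0 in T3. Their highest levels would have given under 3 reads in either unfed library, so no difference was detectable at this depth. In T1 both equalled 3.33 reads, a fraction of a read.

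The opposite-arm sequence zma-miR399f-5p showed another pattern. It was at 11.8 units in CK1, listed at 0 in CK3, and at 4.84 in T1 and 9.15 in T3. CK1 and T1 held 16 reads each, from libraries 2.43-fold apart in depth. At the lowest of its 3 other levels, that of T1, CK3 would have held 5.87 reads, close to the limit, and at the CK1 level 14.3. Of the reads of both miR399f arms the 5p arm had 16 of 16 in CK1 (exact interval 79.4% to 100%), 16 of 46 in T1 (34.8%, 21.4% to 50.2%) and 26 of 48 in T3 (54.2%, 39.2% to 68.6%). With the 3p arm in CK1 taken as 0 reads, the interval of CK1 did not overlap those of the fed libraries, which overlapped each other. As the 3p arm in CK1 may hide under 5 reads, the true share there can be lower than 100%. Whether the intervals would then stay apart was not tested.

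Summed over the 4 sequences, miR399 was at 11.8 units in CK1, 15.9 in T1 and 19.01 in T3, with overlapping counting intervals, and listed at 0 in CK3. With values listed at 0 set to 5 reads, the difference of this total in log2(value + 1) went from 0.41 to -0.49 for T1 against CK1 and from 4.32 to 0.31 for T3 against CK3, so its direction after 1 day was not settled. As listed, the whole of the CK1 value came from the 5p sequence, whereas it made up a smaller part in the fed libraries. In T3 it was still the largest part, at 48.1%. The other sequences may each hide under 5 reads in CK1, so the true part of the 5p sequence there can be lower.

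Single libraries were compared by size alone. A sequence was called higher or lower where log2(value + 1) differed by at least 1, which is 2-fold on that scale, and the higher library had at least 10 units. Calls that involve a value listed at 0 depend on the limit above, and no ratio is given for them.

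After 1 day of feeding, 8 members could be compared between T1 and CK1. None was called higher and 1 lower, against 15.8% higher and 10.3% lower among the 165 sequences compared. The lower one was zma-miR399f-5p, at 0.411 of CK1, with a counting interval for its log2 ratio of units from -2.38 to -0.19. The miR444 total was lower in T1 by size of ratio (0.784 of CK1) and the miR827 total likewise (0.751), neither by 2-fold. Over the 8 members the median difference in log2(value + 1) was -0.39, and -0.12 over all sequences compared. With CK3 as the control in place of CK1, the signs turned: the T1 totals were then 1.41-fold the control for miR444 and 1.18-fold for miR827.

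After 3 days of feeding, 8 members could be compared between T3 and CK3, of which 1 was called higher and 1 lower. The background was 24.9% higher and 23.2% lower of 185 sequences. The higher one was the 20-nt miR444 form zma-miR444a_R-1_1ss12TC, 2.43-fold, and the lower one bdi-MIR444d-p5_1ss2GA, at 0.176 of CK3. The miR444 total was 1.28-fold and the miR827 total 1.69-fold the CK3 value. The members' median difference in log2(value + 1) was 0.39, against 0.01 over all sequences and 0.38 over the sequences left without the names that stood high in CK3, of which 44 of 139 were called higher and 14 lower. As the names left out were picked because many stood high in CK3, leaving them out raises this second background. The nearness of the members' median to it is therefore not a result about the members. With CK1 as the control, T3 was at 0.711 for miR444 and 1.08-fold for miR827, and no member was called.

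Between the unfed libraries, 1 of 9 members compared was called higher in CK3 than in CK1 and 2 were called lower, against 28.9% higher and 22.5% lower of 187 sequences. The higher one was bdi-MIR444d-p5_1ss2GA, listed at 0 in CK1. The lower ones were zma-miR399f-5p, listed at 0 in CK3, and the 20-nt form zma-miR444a_R-1_1ss12TC, which was at 0.362 of CK1. The members' median was -0.88, against 0.22 over all sequences and -0.46 without the names that stood high in CK3. Since those names were picked because many stood high in CK3, leaving them out lowers this second background. The place of the members' median beside it is therefore not a result about the members. Between the fed libraries, none of 7 members was called in either direction, against 13.9% higher and 3.64% lower of 165 sequences. The miR827 total was 1.43-fold higher in T3 than in T1 and the miR444 total was at 0.906.

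**Figure D4:**
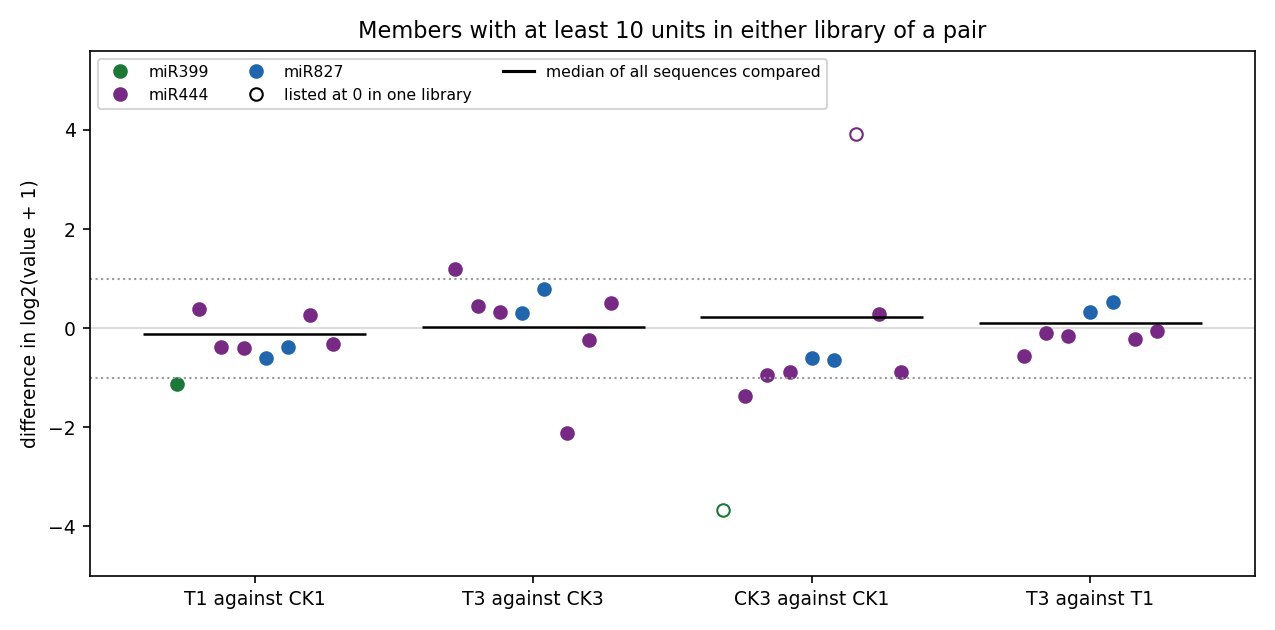
Difference in log2(value + 1) for each member with at least 10 units in either library of a pair (points, coloured by family, open where one library lists 0), with dotted lines at the 2-fold limits and a black line at the median of all sequences compared. For T3 against CK3 the median of the members is 0.39 and the black line stands at 0.01, or at 0.38 without the names that stood high in CK3. For CK3 against CK1 these values are -0.88, 0.22 and -0.46, and the comparisons share CK3. The names left out were picked because many stood high in CK3, so leaving them out shifts both medians by itself.

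Fed and unfed libraries, 2 against 2, were tested with limma over all 154 sequences with at least 10 units in at least 2 libraries, which 7 of the 15 members passed and no miR399 member did. None of the 7 was called, with limma adjusted p between 0.83 and 0.98, and no sequence was called at all (0%), while 6 of 154 had an unadjusted p under 0.05. The fed minus unfed difference in log2(value + 1) was -0.04 ± 0.41 (SE) for the T12C form of miR444, 0.03 ± 0.46 for zma-miR444a and 0.20 ± 0.38 for zma-miR827-3p. The 20-nt form zma-miR444a_R-1_1ss12TC had the largest, 0.78 ± 0.70, which was 1.46 without CK1 (limma adjusted p = 0.13) and 0.10 without CK3 (limma adjusted p = 0.93). Without CK1 the difference of zma-miR444a was 0.51, and without CK3 it was -0.44, so its sign rested on which unfed library was used. Without CK3, limma called 4 of 143 sequences, none of them a member. With no minimum all 15 members entered, and zma-miR399f-3p, listed at 0 in both unfed libraries, had the smallest p of the members, with a limma adjusted p of 0.27. The p-values measure the spread between these 4 libraries, which includes the difference between feeding times.

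By order alone, 3 of the 15 members stood higher in both fed than in both unfed libraries and none lower, where 19.7% and 8.78% of all 319 sequences did. They were zma-miR399e-3p, zma-miR399f-3p and the 19-nt form osa-miR444a-3p.2_R-2_1ss9CT. For zma-miR399e-3p the order rests on the listing limit: it was listed at 0 in both unfed libraries, where its fed levels would have given under 5 reads, and with 0 set to 5 reads its differences were -1.22 for T1 against CK1 and -0.72 for T3 against CK3. The share is close to the background. Among members past the minimum for the test none did, where 17.5% of sequences were above and 9.74% below.

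Entries with the most similar profile were sought by the root mean square difference of log2(value + 1), centred over the 4 libraries, among 147 non-members. For the miR444 total they were zma-miR393b-5p_R-1 (0.08, of a family that targets auxin receptors), zma-miR394a-5p (0.08, of a family that targets an F-box gene) and zma-miR156k-3p_L+1 (0.09), against a median of 0.58. zma-miR394a-5p was at 360 units in CK1 and 198 in CK3, against 250 in T1 and 265 in T3. For the miR399 total they were zma-miR159c-3p_L-1R-1 (0.14), the predicted PC-3p-17806_53 (0.30) and zma-miR172c-5p_L+1 (0.38), against a median of 1.74. Each of these 3 was listed at 0 in CK3 and at 9.69 to 20.4 units elsewhere. Likeness over 4 libraries is a description.

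Other families known to respond to nutrients were represented by 41 sequences, 22 of miR169 and 4 of miR393 for nitrogen and 15 of miR397, miR398, miR408 and miR528 for copper, while miR2111, miR778, miR826, miR5090 and miR857 had none. In T1 against CK1 the rule called 7 of 31 higher and 2 lower, and their median difference in log2(value + 1) was 0.35, where all sequences had 15.8% higher, 10.3% lower and a median of -0.12. Of these 7, 5 were miR169, of which 13 were compared. In T3 against CK3 the counts were 5 higher and 5 lower of 28, and the median was -0.09, where all sequences had 24.9%, 23.2% and 0.01. In CK3 against CK1 they were 5 and 4 of 28, and the median was 0.16, where all sequences had 28.9%, 22.5% and 0.22. In T3 against T1 they were 1 and 3 of 29, and the median was -0.23, where all sequences had 13.9%, 3.64% and 0.10. All 3 that were lower were miR169. The medians of the miR399, miR444 and miR827 members, in the same order of comparisons, were -0.39, 0.39, -0.88 and -0.11.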

How the data were processed

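Per the file headers, the authors deposited normalized signal values per microRNA sequence for 4 small RNA libraries, here called units. Per the labels' protocols the RNA was extracted with Trizol and the libraries were made with the TruSeq small RNA kit. How the authors scaled the values, with which aligner and caller and on which genome build is not given in the sources used here. The table of 500 rows was reduced to 319 distinct sequences, under a maize name where one existed. The worth of 1 read was the largest step for which at least 85% of the lower values of a library were whole multiples within 0.02. Between 90.4% and 93.8% of listed values were whole reads, so no count model was used to test fed against unfed libraries. The counting intervals used implied reads rounded to whole numbers. Ratios used a pseudocount of 1. The fed and unfed libraries were compared with limma 3.58.1 in R 4.3.3 with a trended prior and Benjamini-Hochberg adjustment at 0.05. The code was also run on simulated libraries of equal depth without a listing limit. That run says nothing on the depth difference or the limit in these data. Exact binomial and Poisson intervals came from scipy 1.17.1 and assume independent reads. All members were named, with the 3 nearest profiles per family. The members and lists were chosen with earlier results of these data known. Alternatives covered pseudocount, scaling, minimum, control, merging of equal-valued entries and left-out libraries.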

Additional observations from a re-analysis of the deposited data

Results flagged for a closer look

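The following results moved in opposite directions at the 2 feeding times, T1 against CK1 and T3 against CK3, each by more than its counting interval. The difference between the times was not tested, since each rests on single libraries, and the controls differ. Only members and family totals are listed, and no count over all sequences of the table stands beside them. The difference in log2(value + 1) was -0.35 and then 0.35 for the miR444 total and -0.41 and 0.75 for the miR827 total. It was -0.39 and 0.45 for zma-miR444a, -0.41 and 0.32 for zma-miR444a_1ss12TC, and -0.39 and 0.79 for zma-miR827-3p. All 5 stood lower in CK3 than in CK1. They are not separate results. The 3p sequence made up 90.0% to 92.7% of the miR827 total, and the 21-nt pair 89.8% to 94.0% of the miR444 reads. With CK3 as the control, T1 was higher too, at 0.49 for the miR444 total and 0.23 for the miR827 total. With CK1 as the control, T3 was at -0.49 for the miR444 total but at 0.11 for the miR827 total.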

How the results depend on the processing

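The counts of members called changed under several settings, and the cause was not tested. With CK3 as the control, T1 had 1 member called higher, zma-miR444a_R-1_1ss12TC at 1.74, and 1 lower, bdi-MIR444d-p5_1ss2GA at -1.70. There zma-miR399f-5p was below the minimum and not called, with a difference in log2(value + 1) of 2.55 in place of -1.13. With CK1 as the control, T3 had 0 members called higher and 0 lower, zma-miR444a_R-1_1ss12TC was at -0.18 and bdi-MIR444d-p5_1ss2GA at 1.79. The values 2.55 and 1.79 are against a library that lists 0 and are set by the pseudocount. Against the mean of CK1 and CK3, T1 had 0 members lower and T3 had 0 called in either direction. A pseudocount of 5 left 0 lower in T1 and 0 higher in T3. With no minimum, 4 members were called higher in T1 against CK1, 7 higher in T3 against CK3, and 2 higher and 1 lower in T3 against T1. Of all 319 sequences that setting called 105 higher, 115 higher, and 60 higher and 42 lower. Equal totals gave 2 members higher in T3 against CK3 and 5 lower in CK3 against CK1, and median-of-ratios scaling 4 lower in the latter. Equal totals moved the median of all sequences from 0.01 to 0.31 for T3 against CK3 and from 0.22 to -0.06 for CK3 against CK1, and the higher share of calls from 51.7% to 63.3% and from 56.2% to 44.4%. Merging equal-valued entries, and setting values listed at 0 to 5 reads, left every count of members called as it was. The latter moved single values: zma-miR399f-3p from 3.33 to 1.11 and bdi-MIR444d-p5_1ss2GA from 2.21 to -0.01 for T1 against CK1, and the miR399 total from 0.41 to -0.49 there and from 4.32 to 0.31 for T3 against CK3.

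In limma, leaving out a library gave 0 to 4 sequences called, the 4 without CK3 and no member among them. With the number in the title as a replicate block, 0 were called. Under equal totals the difference of zma-miR444a_1ss12TC was 0.086. With 1 library left out it ranged from -0.49 to 0.40, that of zma-miR444a_R-1_1ss12TC from 0.10 to 1.46, zma-miR444a from -0.44 to 0.51, zma-miR827-5p_L+1 from -0.45 to 0.15, zma-miR827-3p from -0.12 to 0.53, bdi-MIR444d-p5 from -0.13 to 0.15 and ssp-MIR444a-p3 from -0.34 to 0.54. The arm with 1 library left is assumed to vary like the other. The limma alternatives for single members were chosen after seeing the data. Depth limits the miR399 values, which rest on at most 30 reads per sequence and library.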

Other observations

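The share of shortened forms was also examined over the whole table, as pairs of a sequence and its form shorter by 1 or 2 bases at the 3′ end with different values. Of 39 such pairs outside the miR444 family with a value in every library, 9 had a larger share of the short form in both fed than in both unfed libraries, 7 a smaller one and 23 neither. All 3 pairs within miR444, which share their sequences and are not independent, had the larger share in both fed libraries. These pairs were examined after the values were seen.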
